A study of Mus musculus with 6 samples.

Results

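The 9 genes described here drive, restrain or mark progression through the cell cycle, and all 9 had a row among the 25949 probe sets measured. They are the D cyclins Ccnd1 and Ccnd2, the replication clamp Pcna, the mitotic genes Ccnb1, Cdk1, Mki67 and Top2a, the cell cycle inhibitor Cdkn1a and the growth regulator Myc. The rule lists them by Ensembl identifier and applies no threshold to a measured value. The list also supplied their names, since 0 of the 25949 identifiers were found in the RefSeq gene table at hand. Tissue markers, markers of other cells and the remaining cell cycle genes were therefore not analysed here.

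Mammary buds were microdissected from mouse embryos at E13.5. All buds were Eda-/- and so lacked ectodysplasin, the tumor necrosis factor family ligand that signals through Edar to NF-κB. Each of the 6 arrays carried RNA from a pool of about 20 buds of 5 to 6 embryos from which most of the mesenchyme had been taken off by hand. In every pair, buds from one side of the embryos were kept in control medium and those from the opposite side received Fc-Eda-A1, a recombinant Eda protein, at 250 ng/mL, and both incubations lasted 4 h. There were 3 biological replicates per condition, from littermates of 3 litters on a B6CBA background, so the arrays form 3 pairs. No wild type buds are among these groups, and the response is that of cultured tissue which had never been exposed to its own ligand. The pools hold whole buds, so that fewer cells of a type and less RNA per cell cannot be told apart.

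In the cell cycle, D cyclins bind Cdk4 and Cdk6 in G1 and start the phosphorylation of Rb, which releases E2F factors and leads to DNA replication. Pcna then clamps the polymerases to DNA, Top2a untangles the copied strands, and cyclin B1 with Cdk1 starts mitosis, while Ki-67, the product of Mki67, is found in cycling cells and is the common stain for them. Cdkn1a encodes p21, which inhibits cyclin-Cdk complexes and binds Pcna, and it is a textbook target of p53. Myc promotes growth and entry into the cycle. The epithelium of the mammary bud is known for slow proliferation before it sprouts.

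The value of a gene on an array is a log2 expression level, and a difference of 1 is a doubling on that scale. Control array 1 had a median of 4.99 over all probe sets, and the remaining 5 had medians between 4.80 and 4.83. Its values were also compressed, with an interquartile range of 2.59 against 2.81 to 2.96. The difference between Fc-Eda and control in pair 1 thus moved with the level. Among the 501 probe sets closest in level, its median in pair 1 was 0.13 for Cdkn1a, between 0.095 and 0.13 for Cdk1, Mki67 and Top2a, and -0.26 for Ccnb1. In pairs 2 and 3 the corresponding medians lay within 0.030 of 0 for all 9 genes. The values were therefore also compared after cyclic loess, which removes such level-dependent shifts between arrays. The number of arrays limits the precision of these values, and no detection call was used.

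**Figure D1:**
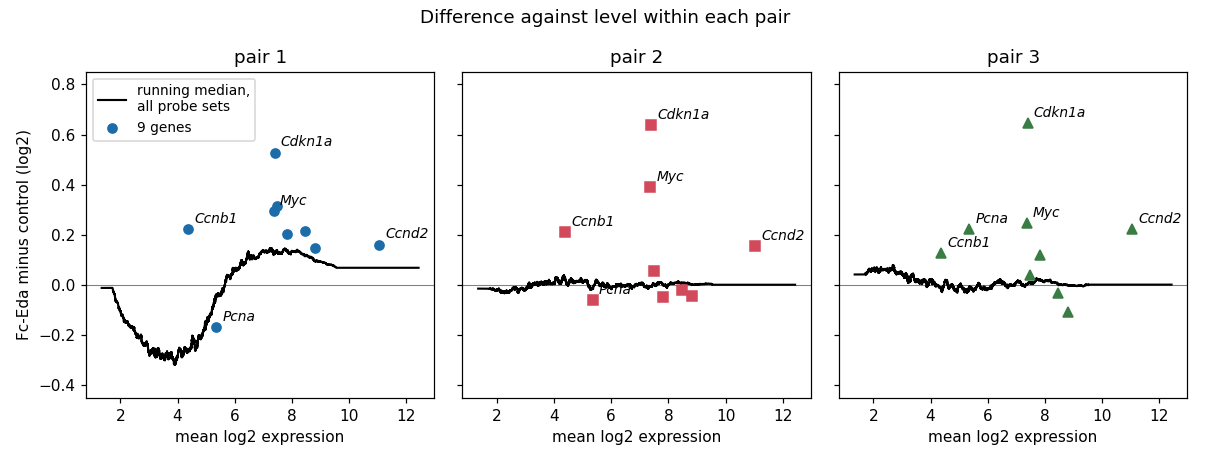
Fc-Eda minus control (log2) of the 9 genes within each pair against their mean log2 expression over the 6 arrays, with the running median over all probe sets as a black line. In pair 1 the line is at -0.26 at the level of Ccnb1 and -0.043 at that of Pcna, and lies above 0 at those of the other 7 genes, while it stays near 0 in pairs 2 and 3.

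Fc-Eda was compared with control medium to ask whether a short pulse of Eda is followed by a change in these transcripts. In the deposited values Cdkn1a had the largest difference of the 9 genes in every pair, and its mean difference of 0.60 corresponds to 1.52-fold more signal after Fc-Eda. After cyclic loess Ccnb1 was ahead of it in pair 1, at 0.47 against 0.41, and Cdkn1a still had the largest mean, 0.56. Myc followed with a mean of 0.31, or 1.24-fold. The other 7 genes had mean differences between -0.0016 and 0.19. In limma with the pairs as a block, 0 of the 9 genes and 0 of all probe sets (0%) passed a q-value of 0.05 by Storey's method in either direction. Before adjustment, with p under 0.05, that fit had 2 of the 9 genes higher, Cdkn1a and Myc, where 2.73% of all probe sets were higher, and 0 were lower, where 3.33% were.

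The study's methods name 2 further paired tests. IBMT, an intensity-based moderated test in which brighter and dimmer probe sets get their own expected variance, called 1 of the 9 genes higher, Cdkn1a, against 0.339% of all probe sets. A regularised test of the Cyber-T type called the same single gene, against 0.624% of all probe sets. Both called 0 of the 9 lower, against 0.0231% and 0.119%. Between the pairs, 5 of the 9 genes were higher after Fc-Eda in all 3, namely Cdkn1a, Myc, Ccnd2, Ccnb1 and Cdk1, against 13.2% of all probe sets. None of the 9 was lower in all 3 pairs, against 15.3%. The highest control array lay below the lowest Fc-Eda array for 3 genes, Cdkn1a, Ccnd2 and Ccnb1, against 3.98% of all probe sets, and the opposite held for none, against 5.11%. After cyclic loess 5 genes were higher in all 3 pairs, against 15.1% of all probe sets, and 0 lower, against 14.5%. The groups did not overlap for 3 higher genes, against 5.1%, and for 0 lower ones, against 4.61%. The median of the 9 mean differences was 0.14, beside -0.024 over all probe sets, and after cyclic loess it was 0.094 beside -1.1e-05. Since 3 pairs allow no two-sided p below 0.25 in an exact permutation test that exchanges the arrays within pairs, the models fitted across all probe sets are the tests given here.

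**Figure D2:**
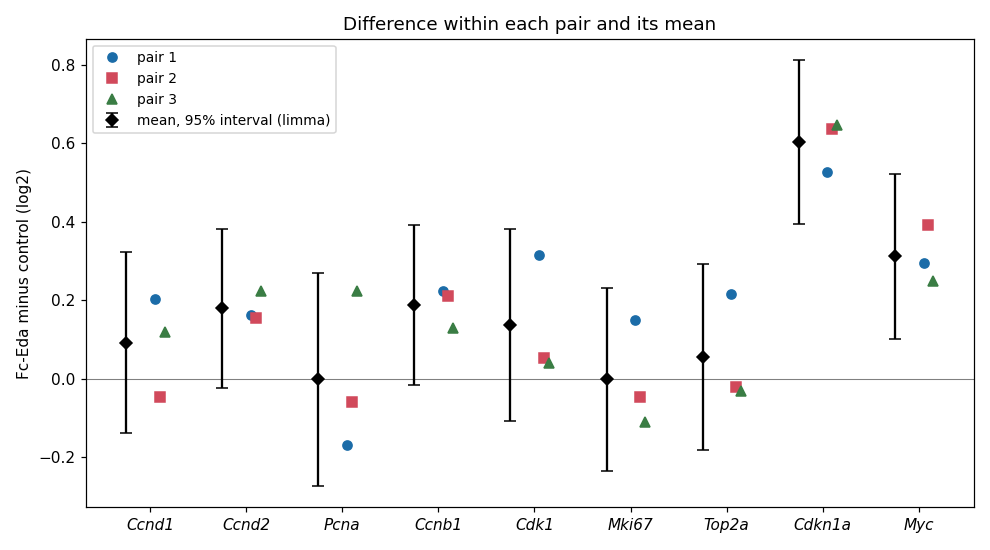
Fc-Eda minus control (log2) for each gene in pairs 1, 2 and 3 (coloured points) with the mean over the pairs and its 95% interval from limma (black). The interval of Cdkn1a runs from 0.40 to 0.81 and that of Myc from 0.10 to 0.52, while those of the other 7 genes include 0.

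Cdkn1a (probe set ENSMUSG00000023067_at), the inhibitor, was at 7.02, 7.19 and 7.09 on control arrays 1, 2 and 3 and at 7.55, 7.83 and 7.73 on the Fc-Eda arrays of the same pairs. All Fc-Eda arrays were above all control arrays, and the lowest of them belonged to the pair with the lowest control. The differences within pairs were 0.53, 0.64 and 0.65, with a mean of 0.60 ± 0.066 (SD, n = 3 pairs). The median SD among probe sets of similar level was 0.11. With the running median of each pair subtracted, which lowers the difference in pair 1 to 0.40, the SD of Cdkn1a was 0.14. In limma the standard error was 0.082, the unadjusted p was 0.00061 and q = 0.252, and 51 of all probe sets had a smaller p. By size, 114 probe sets had a larger mean difference. The q-value was 0.018 in IBMT and 0.0022 in the Cyber-T type test.

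Whether Cdkn1a was called depended on the test and on which pairs were in the fit. After cyclic loess its differences were 0.41, 0.64 and 0.64, with q = 0.086 in IBMT, past the threshold no longer, and 0.0024 in the Cyber-T type test. IBMT gave q = 0.173 without pair 1, 0.071 without pair 2 and 3.7e-05 without pair 3, and the Cyber-T type test 0.00016, 0.017 and 0.021. In IBMT the difference was 0.64 with a standard error of 0.047 without pair 1, and 0.58 with 0.11 without pair 3. The smaller q thus went with the larger error, since the moderation was estimated anew in each fit. These q-values of IBMT therefore do not measure how far Cdkn1a rests on a single pair. Its mean difference stayed between 0.55 and 0.66 in all 26 alternative settings.

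The proximal promoter of Cdkn1a is shown because this gene stood apart from the other 8 in size. RefSeq lists 2 transcription starts for it, 2790 bases apart, and an array value for the gene cannot tell which start was used. Ahead of the upstream start (GRCm38.p6, chr17:29090879-29090978, plus strand) capitals mark the 2 matches to the p53 half-site consensus of 10 bases. Ahead of the downstream start (chr17:29093659-29093768, plus strand) they mark GGGCGG, the GC box bound by Sp1 and related factors.
Cdkn1a, upstream start: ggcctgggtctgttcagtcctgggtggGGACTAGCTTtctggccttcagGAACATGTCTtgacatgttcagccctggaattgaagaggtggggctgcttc
Cdkn1a, downstream start: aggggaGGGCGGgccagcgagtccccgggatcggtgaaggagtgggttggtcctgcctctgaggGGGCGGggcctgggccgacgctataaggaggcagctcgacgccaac
Within 250 bases before a start, 7.13% of the 32851 RefSeq promoters searched hold a p53 half-site on either strand and 32.7% a GC box. Of the 6 listed genes with a promoter entry, all 6 held a GC box, and 1, Cdkn1a, held a p53 half-site. The NF-κB consensus had no match in that window ahead of either start, nor in those of Ccnb1, Cdk1, Mki67, Pcna and Top2a, and 3.90% of all promoters hold one. These matches describe letters in a short window and are no evidence of binding.

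Myc (probe set ENSMUSG00000022346_at), a transcription factor that drives growth and proliferation, was at 7.07, 7.38 and 7.19 on the control arrays and at 7.36, 7.77 and 7.43 after Fc-Eda. The groups overlapped, as control 2 was above the Fc-Eda array of pair 1, but within each pair the Fc-Eda array was higher, by 0.30, 0.39 and 0.25. The mean of the 2 arrays of a pair ranged over 0.36 between pairs, more than the mean difference of 0.31 ± 0.073 (SD, n = 3 pairs). In limma the standard error was 0.083, the unadjusted p was 0.012 and q = 0.538, and 557 probe sets had a larger mean difference. Neither IBMT, with q = 0.153, nor the Cyber-T type test, with q = 0.072, called it. With one pair left out, the Cyber-T type test gave q = 0.015 without pair 1, 0.443 without pair 2 and 0.171 without pair 3. After cyclic loess the differences were 0.18, 0.39 and 0.24.

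**Figure D3:**
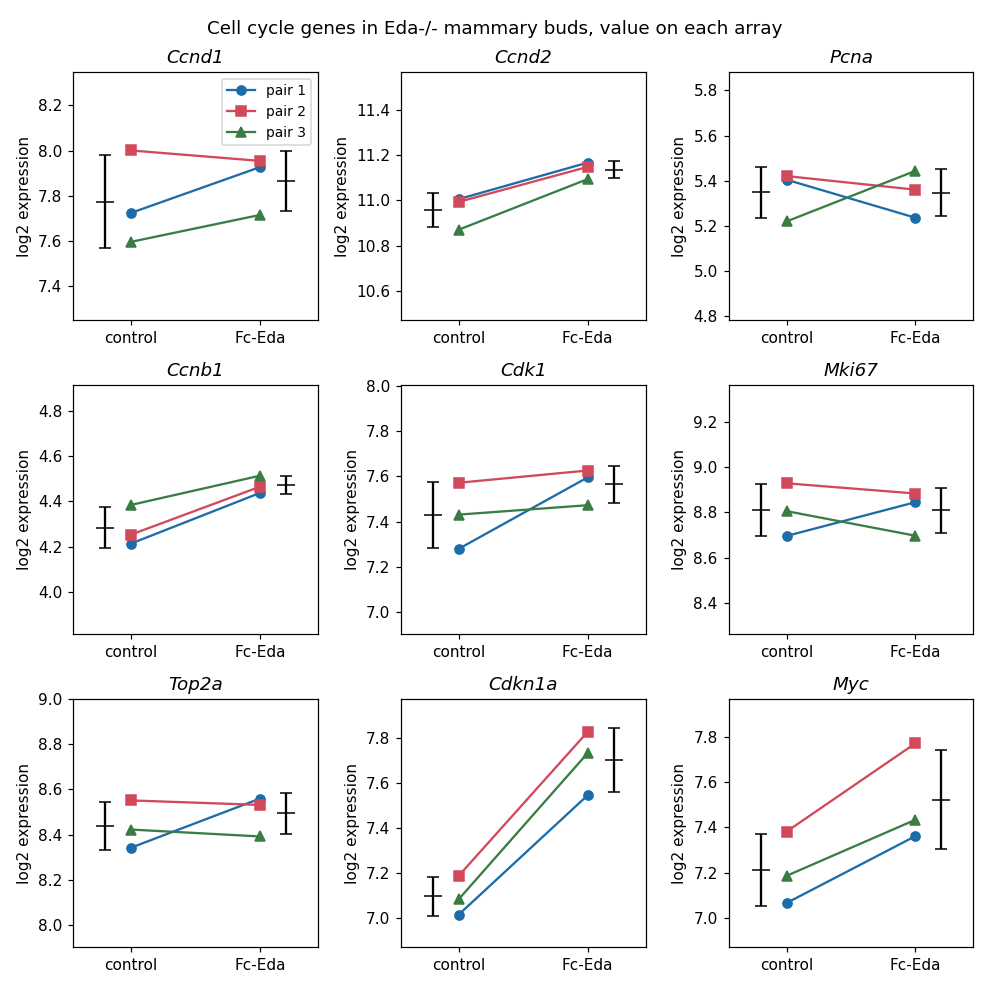
Log2 expression of each of the 9 genes on the 6 arrays, with a line joining the arrays of a pair and bars for mean ± SD of each group (n = 3). Every panel spans the same height on the log2 scale, and the lines of Cdkn1a and Myc climb in all 3 pairs while those of Mki67, Top2a and Pcna cross.

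Ccnd2 (probe set ENSMUSG00000000184_at), one of the D cyclins, was at 11.01, 10.99 and 10.87 on the control arrays and at 11.17, 11.15 and 11.09 after Fc-Eda. The groups did not overlap, although the gap between the highest control and the lowest Fc-Eda array was smaller than the distance between the highest and the lowest control. Its differences of 0.16, 0.15 and 0.22 gave a mean of 0.18 ± 0.038 (SD, n = 3 pairs), a 1.13-fold difference, with a standard error of 0.080 and q = 0.738 in limma. IBMT and the Cyber-T type test gave q = 0.346 and 0.266.

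Ccnd1 (probe set ENSMUSG00000070348_at), the D cyclin that many growth signals induce, was at 7.72, 8.001 and 7.60 on the control arrays and at 7.93, 7.95 and 7.72 after Fc-Eda. The highest of the 6 values came from a control array, and the pair differences of 0.20, -0.046 and 0.12 had no common direction. The mean of 0.092 ± 0.13 (SD, n = 3 pairs) had a 95% interval from -0.14 to 0.32 in limma, with q = 0.757, and was 0.047 after cyclic loess. It was 0.036 without pair 1, 0.16 without pair 2 and 0.078 without pair 3. In Ccnd1 the pairs themselves differed by 0.32 between the highest and the lowest pair mean.

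Pcna (probe set ENSMUSG00000027342_at), the replication clamp, was at 5.40, 5.42 and 5.22 on the control arrays and at 5.24, 5.36 and 5.44 on the Fc-Eda arrays. It was lower in pairs 1 and 2, by 0.17 and 0.060, and higher in pair 3, by 0.22. The mean difference of -0.0016 ± 0.20 (SD, n = 3 pairs) was the one with the widest spread among the 9 genes. The 95% interval ran from -0.27 to 0.27, so that a change of about 1.2-fold in either direction (0.827 to 1.21) lies within it. The direction of the mean turned to higher after cyclic loess, where it was 0.026. It was 0.082 without pair 1, 0.028 without pair 2 and -0.11 without pair 3.

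Ccnb1 (probe set ENSMUSG00000041431_at), the B-type cyclin whose rise precedes mitosis, was at 4.21, 4.25 and 4.38 on the control arrays and at 4.44, 4.47 and 4.51 after Fc-Eda. The 2 groups did not overlap, and the differences were 0.22, 0.21 and 0.13. Their mean of 0.19 ± 0.052 (SD, n = 3 pairs), or 1.14-fold, had a standard error of 0.081 and q = 0.730 in limma. This probe set was dimmer than the median of all probe sets. The median SD at its level was 0.20, a value that includes the level-dependent shift of -0.26 in pair 1. With the running median of each pair subtracted, the SD of Ccnb1 was 0.18. After cyclic loess the difference was 0.47 in pair 1 and 0.19 and 0.13 in the others, with a mean of 0.27 and q = 0.521 in limma.

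Cdk1 (probe set ENSMUSG00000019942_at), the kinase partner of cyclin B1, was at 7.28, 7.57 and 7.43 on the control arrays and at 7.60, 7.63 and 7.47 on the Fc-Eda arrays. The Fc-Eda array was higher in each pair, but by 0.32 in pair 1 against 0.054 and 0.042 in pairs 2 and 3, and the groups overlapped. The mean of 0.14 ± 0.15 (SD, n = 3 pairs; q = 0.751 in limma) went down to 0.048 without pair 1. After cyclic loess the difference in pair 1 was 0.20.

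Mki67 (probe set ENSMUSG00000031004_at), the gene of the proliferation antigen Ki-67, was at 8.70, 8.93 and 8.81 on the control arrays and at 8.85, 8.88 and 8.70 on the Fc-Eda arrays. It was higher by 0.15 in pair 1 and lower in pairs 2 and 3, with differences of -0.045 and -0.11. The mean of -0.0015 ± 0.13 (SD, n = 3 pairs) had a 95% interval from -0.24 to 0.23 in limma, or 0.849-fold to 1.18-fold. The mean was -0.045 after cyclic loess and 0.055 when every array was centred on its own median. It was -0.077 without pair 1, 0.020 without pair 2 and 0.052 without pair 3.

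Top2a (probe set ENSMUSG00000020914_at), the topoisomerase of dividing cells, was at 8.34, 8.55 and 8.42 on the control arrays and at 8.56, 8.53 and 8.39 on the Fc-Eda arrays. Its differences of 0.22, -0.020 and -0.031 followed the order of pairs seen in Cdk1 and Mki67. The mean was 0.056 ± 0.14 (SD, n = 3 pairs), with a 95% interval from -0.18 to 0.29 in limma, and 0.011 after cyclic loess. It turned to -0.025 without pair 1 and was 0.093 without pair 2 and 0.099 without pair 3. Cdk1, Mki67 and Top2a had their lowest value of the 6 on control array 1, the array with the narrow range, and so did Ccnb1, Cdkn1a and Myc.

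**Figure D4:**
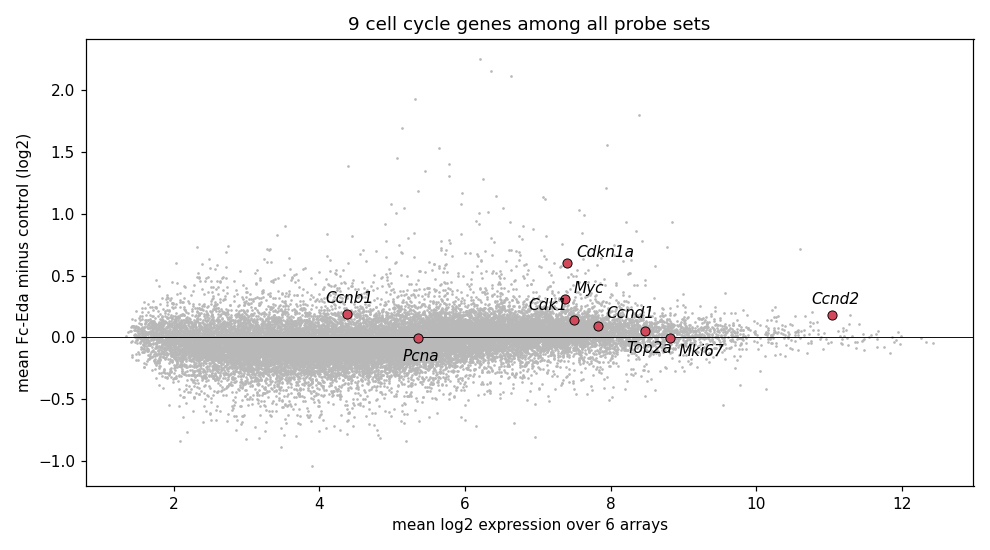
Mean Fc-Eda minus control (log2) against mean log2 expression for all 25949 probe sets (grey) with the 9 genes in red. Cdkn1a lies at the upper edge of the cloud, with 114 probe sets above it in size, and Myc within its upper part, while Mki67 and Pcna lie on the line at 0.

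Promoters of 6 of the 9 genes were in the RefSeq table, which had no entry for Ccnd1, Ccnd2 and Myc. Those of Cdk1, Top2a and Ccnb1 are shown because promoters of G2/M genes are known for NF-Y boxes and a cell cycle homology region (CHR). In the sequences below, each read on the strand of the gene, capitals mark CCAAT, the NF-Y box, and TTTGAA, the CHR, or their complements ATTGG and TTCAAA. The windows are from GRCm38.p6 and end 1 base before the start, or 11 bases before it for Top2a. They lie at chr10:69352913-69353032 for Cdk1, chr13:100786487-100786606 for Ccnb1 and chr11:99024200-99024339 for Top2a, all on the minus strand.
Cdk1: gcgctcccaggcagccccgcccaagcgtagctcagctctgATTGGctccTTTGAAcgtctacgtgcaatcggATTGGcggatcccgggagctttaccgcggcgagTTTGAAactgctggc
Ccnb1: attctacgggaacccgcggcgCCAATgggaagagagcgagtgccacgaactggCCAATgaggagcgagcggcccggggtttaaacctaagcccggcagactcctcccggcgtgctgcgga
Top2a: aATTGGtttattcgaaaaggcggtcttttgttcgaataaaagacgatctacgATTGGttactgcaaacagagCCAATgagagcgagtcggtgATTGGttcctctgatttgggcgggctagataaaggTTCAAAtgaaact
Over the 250 bases before the start, the NF-Y box was found in 5 of the 6 genes, Ccnb1, Cdk1, Mki67, Pcna and Top2a, against 33.8% of all promoters, and not ahead of either start of Cdkn1a. The CHR letters TTTGAA were found in 3, Cdk1, Mki67 and Top2a, against 16.0%, and other forms of the CHR were not searched. Top2a held the NF-Y box 6 times and Ccnb1 2 times. The 5 genes with the NF-Y box had mean differences between -0.0016 and 0.19 after Fc-Eda, and Cdkn1a, without it, had 0.60. Cdkn1a was looked at because of its size, and Myc, with 0.31, had no promoter entry. With 1 gene beside 5, this is a description of the promoters searched. A link between the letters and the response was not tested.

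**Figure D5:**
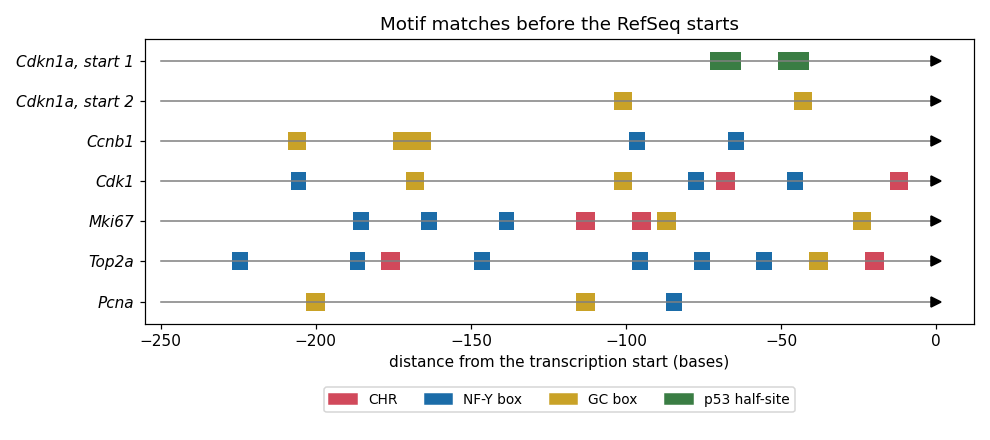
Positions of motif matches on either strand in the 250 bases before 7 RefSeq starts of 6 genes, with the distance from the start in bases on the horizontal axis and the start as an arrowhead. NF-Y boxes occur ahead of Pcna and the mitotic genes and CHR letters ahead of Cdk1, Mki67 and Top2a, while the p53 half-sites occur ahead of the upstream Cdkn1a start.

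The pairs also differed from each other irrespective of treatment. The mean of its 2 arrays was highest in pair 2 for 7 of the 9 genes, Ccnd1, Cdk1, Mki67, Top2a, Pcna, Cdkn1a and Myc, and this count was 7 after cyclic loess as well. Ccnd2 was highest in pair 1 and Ccnb1 in pair 3. The range of the pair means was largest for Myc, at 0.36, and smallest for Pcna, at 0.070. For Cdkn1a, Ccnd2 and Ccnb1 the pair means ranged over 0.23, 0.10 and 0.12, less than the differences between conditions of 0.60, 0.18 and 0.19. For Myc, Ccnd1, Cdk1, Mki67, Top2a and Pcna they ranged over more than the difference.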

How the data were processed

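The authors deposited 1 log2 value per array and probe set from Affymetrix Mouse Exon 1.0 ST arrays, with RMA named in the processing notes and no version given. The probe set definition is not given in the sources used here. The quartiles of these log2 values differ between arrays, which does not show what normalization preceded them. Groups and replicate numbers came from the sample titles, and the dose from the study's methods. The numbers pair the arrays, since buds of the same embryos were divided between conditions. The deviations within a pair correlated with r = 0.079, 0.29 and 0.29 across probe sets.

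All probe sets were fitted in limma 3.58.1 (R 4.3.3) with treatment and replicate number as terms and default moderation. Storey's q-values were computed over all probe sets (lambda from 0.05 to 0.95, smoothing spline with 3 degrees of freedom), with a threshold of 0.05. IBMT (loess span 0.75) and the Cyber-T type test (window of 101 probe sets, prior weight 10) were written out anew, so default settings of the authors' programs may differ. Cyclic loess and the other normalizations were applied to the deposited values.

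The genes, gene lists and most alternatives were chosen with earlier results of these data known. The remaining alternatives were added after seeing the values, and the promoter motifs were chosen after the sequences had been read. The text names the 9 listed genes. Lists of further cell cycle genes and of cell markers, and genes of similar pattern, could not be used because identifiers have no names here.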

Additional observations from a re-analysis of the deposited data

How the results depend on the processing

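No gene of the 9 was called by limma with the pairs as a block, nor was any other probe set. No background level or detection call was used. Over all probe sets, 88 were higher and 6 lower in IBMT, 162 higher and 31 lower in the Cyber-T type test and when any 1 of the 3 tests sufficed, and 90 higher and 6 lower with trend and robust moderation. Keeping only probe sets brighter than the median gave 85 higher and 6 lower, and centring 56 higher and 1 lower. Array weights gave 11 higher, and the fit with no replicate block 3 higher and 0 of the 9 genes. By a plain paired t-test without moderation, the form the methods give as the base of their 3 tests, 802 were higher and 696 lower unadjusted, and 1 lower after Benjamini-Hochberg adjustment. With one pair left out limma had 0 to 10 higher and 0 to 1 lower, and 0 of the 9 genes. Of the 9 genes, 1 was called higher, Cdkn1a, by IBMT, the Cyber-T type test, any 1 of the 3, trend and the brighter probe sets alone, which leave out Ccnb1. The unadjusted plain paired t-test had 4 past its threshold, Cdkn1a, Myc, Ccnd2 and Ccnb1. Limma made no call with Benjamini-Hochberg adjustment, after dropping the dimmest 25% of probe sets, or after quantile normalization or cyclic loess.

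The following were added after seeing the data. On values after cyclic loess IBMT had 18 probe sets higher, 1 lower and 0 of the 9 genes, and the Cyber-T type test 186 higher, 61 lower and 1 of the 9. With pair 1 left out IBMT had 0 higher and 0 lower, with pair 2 left out 54 higher and 2 lower, and with pair 3 left out 256 higher and 269 lower, among them 0 to 1 of the 9 genes. For the Cyber-T type test these were 337 higher and 175 lower, 82 higher and 8 lower, and 78 higher and 25 lower, among them 1 to 2 of the 9. Removing the level-dependent shift gave no call in limma.

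Of the 26 alternatives (25 for Ccnb1), 11 had Cdkn1a past the threshold, 2 had Myc, and 1 each had Ccnd2 and Ccnb1. These counts include the unadjusted paired t-test, with 802 of 25949 probe sets higher. It gave the only calls of Ccnd2 and Ccnb1 and 1 of the 2 of Myc. The other call of Myc was by the Cyber-T type test without pair 1, with 337 probe sets higher. The setting where any 1 of the 3 tests sufficed repeated the Cyber-T type calls. The differences of Cdkn1a, Myc, Ccnd1, Ccnd2, Ccnb1 and Cdk1 kept their sign in every alternative that tested them. The means near 0 turned. Pcna was 0.030 with quantile normalization, 0.055 with centring, 0.026 after cyclic loess (in all 3 tests), 0.050 with array weights, 0.022 with the level-dependent shift removed, and between -0.11 and 0.082 with a pair left out (0.082 without pair 1, 0.028 without pair 2). Mki67 was 0.055 with centring and ranged from -0.077 to 0.052 with a pair left out (0.020 without pair 2, 0.052 without pair 3). Top2a was -0.00078 with array weights and ranged from -0.025 without pair 1 to 0.099 without pair 3. The cause was not tested.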
